A study of Homo sapiens with 4 samples.

Results

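Cells read oxygen through the hypoxia-inducible factors (HIF), and the 9 genes described here encode the HIF subunits and the proteins that sense oxygen for them: the alpha subunits HIF1A and EPAS1 (HIF-2 alpha), the beta subunits ARNT and ARNT2, the prolyl hydroxylases EGLN1, EGLN2 and EGLN3, the ubiquitin ligase subunit VHL, and the asparaginyl hydroxylase HIF1AN (FIH, factor inhibiting HIF). They were taken by gene symbol from a table of 15575 genes, and all 9 passed the filter on low counts, which 13172 genes passed. U251 is an established human glioblastoma (GBM) cell line. The table holds 2 Ctrl libraries (pGreen control) and 2 PRMT3-KD libraries, in which a lentiviral shRNA knocked down the arginine methyltransferase PRMT3, each profiled by RNA-seq at 72 h. Both groups carried a lentivirus, the line was the same in all 4 libraries, and which of the study's PRMT3 hairpins was used is not given in the sources used here.

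In the presence of oxygen, the EGLN enzymes hydroxylate prolines of the alpha subunits, VHL binds the hydroxylated protein, and the proteasome degrades it. FIH adds a hydroxyl group to an asparagine of the alpha subunits, which keeps the coactivators p300 and CBP away. When oxygen falls, the alpha subunits accumulate, pair with ARNT or ARNT2 and switch on genes of glucose uptake, glycolysis and blood vessel growth, a program for which GBM is well known. EGLN1 and EGLN3 are themselves induced by HIF. RNA-seq reads only the mRNA of these proteins, and the oxygen steps act on the protein.

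Library totals lay between 24804250 and 29756313 counts. Values are given as CPM, counts scaled to a fixed library total, after edgeR's TMM scaling. In bulk samples, fewer cells of a type and less RNA per cell cannot be told apart. PRMT3 itself was at 19.3 and 19.4 CPM in the Ctrl libraries and at 3.03 and 1.58 CPM in PRMT3-KD cells (log2 fold change -3.08, adjusted p = 0.0177, edgeR). The 2 Ctrl libraries differed little beyond counting error (chi-square divided by its degrees of freedom, 1.41), whereas the 2 PRMT3-KD libraries differed far more (66.7). Nothing in the labels says that libraries of a group came from separate cultures, so p-values measure only the spread between these libraries, which may be technical. Of the glial markers (8 of 9 in the table), VIM (5393 CPM), CD44 (1956 CPM), NES (783 CPM) and SOX2 (171 CPM) were high in Ctrl cells and not called. S100B (2.08 CPM) and ALDH1L1 (0.217 CPM) were low in Ctrl cells and not called either. The 4 of 5 neuron markers in the table summed to 23.7 to 24.1 CPM in the Ctrl libraries and 25.3 to 28.5 CPM in the others, with 0 called. SOX9 was called lower (244 to 155 CPM on average, log2 fold change -0.65), and GFAP, not called, had 13.1 and 14.2 CPM in the Ctrl libraries and 1.26 and 5.38 CPM in the others. Epithelial markers were higher in PRMT3-KD cells, with a summed level of 4 of the 5 listed genes of 38.1 to 40.5 CPM in the Ctrl libraries and 85.4 to 112 CPM in PRMT3-KD libraries, through KRT8 and KRT18, while CDH1 was at 0 in both Ctrl libraries and at most at 0.157 CPM otherwise. The summed endothelial markers (3 of 5 in the table) had 27.5 to 29.6 CPM in the Ctrl libraries and 19.6 to 37.9 CPM in the others, with KDR called lower (log2 fold change -0.86) and CDH5 at 25.4 CPM in PRMT3-KD library 2 but at most at 5.31 CPM elsewhere. The 4 of 5 leukocyte markers in the table summed to 6.07 to 6.28 CPM in the Ctrl libraries and 3.42 to 4.05 CPM in the others, mostly from CSF1R (5.27 and 5.42 against 2.48 and 3.45 CPM, not called), while PTPRC had at most 0.246 CPM in any library. The part of these differences in the changes of the HIF genes was not tested.

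Of the 9 genes, HIF1A and HIF1AN fell after PRMT3 knockdown and EPAS1 rose. A gene was called where edgeR's quasi-likelihood test gave a Benjamini-Hochberg adjusted p under 0.05 and the change was over 1.5-fold. Thus 3 of 9 genes were called, beside 10.9% of all genes tested. Lower genes made up 2 of 9 (5.97% of all genes), and higher genes 1 of 9 (4.97% of all genes). The median log2 fold change of the 9 genes was -0.04, and that of all genes tested was 0.01. In 7 of the 9 genes the CPM of the groups did not overlap, but this was also true of 67.1% of all genes tested. The calls need both Ctrl libraries: without either of them, edgeR called 0 genes of the whole table, although the same 3 members kept an unadjusted p under 0.05 with over 1.5-fold, as did 1633 and 1653 genes in all.

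**Figure D1:**
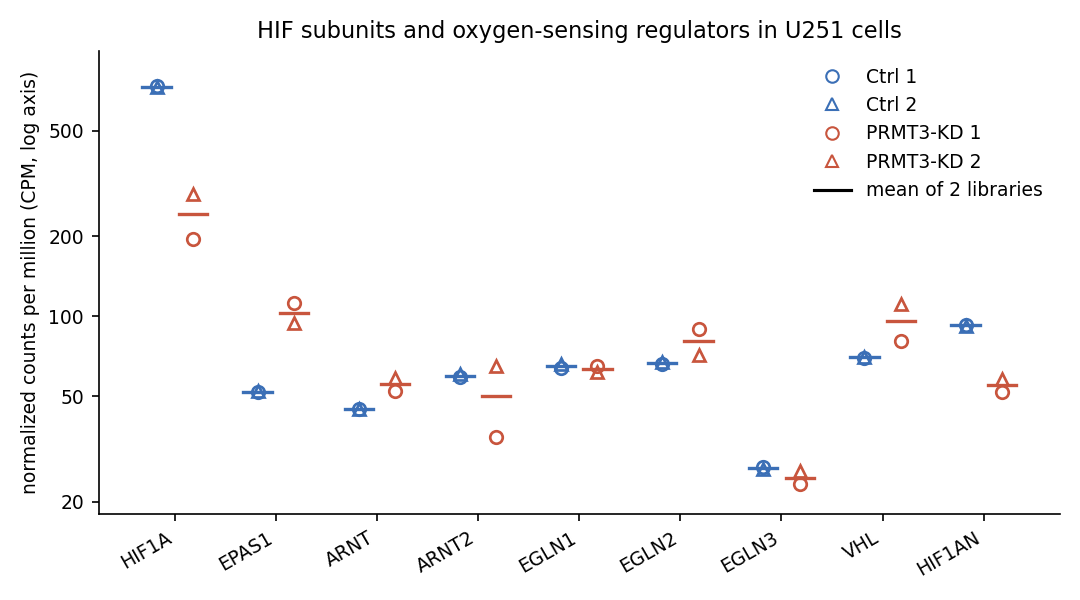
Normalized CPM (log axis) of the 9 genes in each of the 4 U251 libraries, with circles for library 1, triangles for library 2, blue for Ctrl, red for PRMT3-KD and a bar at the mean of the 2 libraries. HIF1A drops from over 728 CPM to at most 289 CPM, EPAS1 rises from 51.9 to 103 CPM on average, and HIF1AN falls below all its Ctrl values.

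HIF1A and HIF1AN shared a feature of sequence. The genes were taken by symbol, with earlier results of these data known. The sequence CAGCTCA was searched on the strand of the mRNA because genes that hold it in the 3′ UTR were known to be lower in the PRMT3-KD libraries used here, so the counts are a description and no independent evidence. In the canonical transcripts, HIF1A and HIF1AN have 2 copies each, EGLN3 has 1, and the 3′ UTRs of EPAS1, ARNT, ARNT2, EGLN1, EGLN2 and VHL have 0. No member has a copy in its coding sequence, whereas PRMT3 has 1 there, in exon 7 of 16 (chr11:20419225-20419231, plus strand), and 0 in its 3′ UTR. The sites are shown because the members with 2 copies are the members that were called lower. The 7 bases are in capitals, in canonical GENCODE 44 transcripts on GRCh37, and the HIF1A sites (chr14:62214001-62214007 and chr14:62214559-62214565, plus strand) lie in exon 15 of 15, those of HIF1AN (chr10:102309134-102309140 and chr10:102310369-102310375, plus strand) in exon 8 of 8, and that of EGLN3 (chr14:34394013-34394019, minus strand) in exon 5 of 5.
HIF1A, site 1: atcacagaCAGCTCAttttctca
HIF1A, site 2: cactttgcCAGCTCAaaagaaaa
HIF1AN, site 1: agcccaggCAGCTCAttcactac
HIF1AN, site 2: agaatataCAGCTCAgggtgaaa
EGLN3: tctttcttCAGCTCActtggctc
PRMT3, coding sequence: gtttatttCAGCTCAtacgggca

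HIF1A (ENSG00000100644, chr14:62162231-62214977 of GRCh37) encodes the alpha subunit of HIF-1, which drives most of the glycolytic response to hypoxia. It had 738 and 728 CPM in the 2 Ctrl libraries and 196 and 289 CPM in the 2 PRMT3-KD libraries. Both PRMT3-KD values lay far below both Ctrl values, and library 2 kept 1.48 times the level of library 1. The log2 fold change was -1.60 (SE 0.203, 95% interval -2.14 to -1.06, adjusted p = 0.0204 by the edgeR test), a level 3.03-fold lower. Without Ctrl library 1 or 2 the log2 fold change was -1.59 or -1.61, with an adjusted p of 0.108 or 0.0868 (edgeR). Exons of HIF1A overlap those of the antisense RNAs HIF1A-AS1 and HIF1A-AS3 and, on the same strand, those of ENSG00000258964, which are not analysed here. The annotation also holds a HIF1A pseudogene, HIF1AP1. Strand use in the counting is not given in the sources used here.

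EPAS1 (ENSG00000116016, chr2:46520806-46613836), the alpha subunit of HIF-2, moved the other way. It had 51.7 and 52.0 CPM in the Ctrl libraries and 112 and 93.8 CPM in PRMT3-KD libraries. The 2 Ctrl values were almost equal and both PRMT3-KD values stood well above them. The log2 fold change was 0.99 (SE 0.111, 95% interval 0.69 to 1.28, adjusted p = 0.0192 by the same edgeR test), a level 1.98-fold higher. PRMT3-KD library 1, which was the lower for HIF1A, was the higher for EPAS1. Without Ctrl library 1 or 2 the log2 fold change was 0.98 or 0.99, with an adjusted p of 0.165 or 0.152 (edgeR).

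Because a ratio of counts within a library does not depend on scaling, the balance of the alpha subunits was also followed library by library. HIF1A had 14.3 and 14.01 times the counts of EPAS1 in Ctrl, but 1.75 and 3.08 times in PRMT3-KD libraries. The mean log2 ratio went from 3.82 ± 0.0190 to 1.21 ± 0.576 (SD, n = 2 each), a difference of -2.61. With 2 libraries against 2, an exact two-sided permutation test cannot go below p = 0.333, the value found here (0.5 adjusted over the 3 ratios computed). Per length of the canonical transcript, EPAS1 supplied 5.09% and 5.18% of the summed HIF1A and EPAS1 level in Ctrl, and 30.4% and 19.9% in PRMT3-KD libraries. The sum itself, in CPM per kb, went from 197 and 195 to 71.3 and 91.4. HIF1A mRNA thus remained the more abundant alpha mRNA in all 4 libraries, with a smaller lead.

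**Figure D2:**
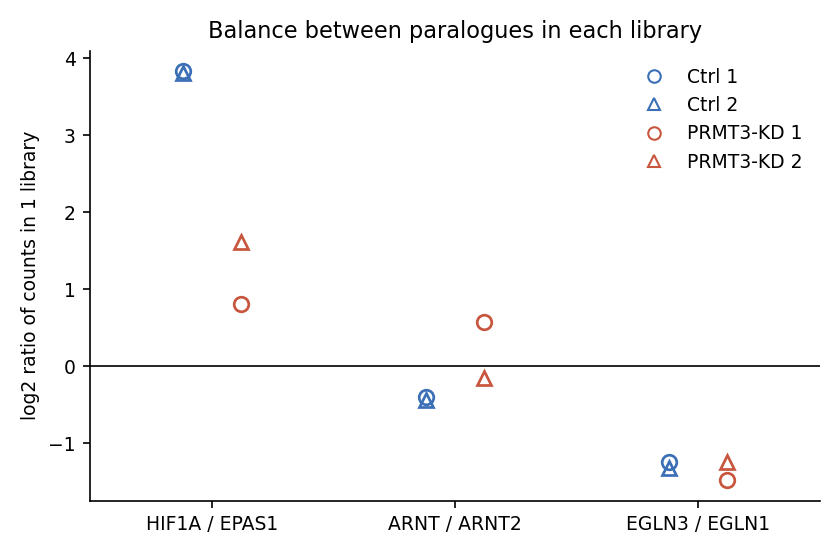
Log2 ratio of counts of HIF1A to EPAS1, ARNT to ARNT2 and EGLN3 to EGLN1 within each library, with circles for library 1, triangles for library 2, blue for Ctrl and red for PRMT3-KD. The ratio of HIF1A to EPAS1 falls from 3.83 and 3.81 in Ctrl to 0.81 and 1.62 in PRMT3-KD libraries, and the ratio of EGLN3 to EGLN1 overlaps between the groups.

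The beta subunits, which dimerize with the alpha subunits whatever the oxygen level, did not pass the threshold. ARNT (ENSG00000143437, chr1:150782189-150849184), the ubiquitous beta subunit, had 44.7 CPM in each Ctrl library and 52.4 and 58.3 CPM in PRMT3-KD libraries. Its groups did not overlap, and the log2 fold change was 0.31 (95% interval 0.07 to 0.55, adjusted p = 0.0817 by edgeR's quasi-likelihood test). ARNT2 (ENSG00000172379, chr15:80696692-80890274), the paralogue best known in the nervous system, had 58.7 and 60.5 CPM in the Ctrl libraries and 35.2 and 64.9 CPM in PRMT3-KD libraries. Here 1 PRMT3-KD library lay below both Ctrl values and the other above them, which left a 95% interval of -1.06 to 0.55 around a log2 fold change of -0.25 (adjusted p = 0.588, edgeR). Without PRMT3-KD library 2 the log2 fold change was -0.76 (adjusted p = 1.3e-10, edgeR) and without library 1 it was 0.13 (adjusted p = 0.0130, edgeR), in fits that assume the lone PRMT3-KD library to vary as little as the Ctrl libraries. The log2 ratio of ARNT to ARNT2 was -0.40 and -0.44 in Ctrl and 0.58 and -0.16 in PRMT3-KD libraries. Both PRMT3-KD ratios were the higher, and the exact permutation test gave p = 0.333, its smallest possible value.

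Of the 3 prolyl hydroxylases, 0 were called by edgeR, DESeq2 or limma-voom, beside 10.9% of all genes tested (edgeR). An unadjusted p under 0.05 was reached by 0 of the 3 (edgeR). EGLN1 (PHD2, ENSG00000135766, chr1:231499497-231558033), the main hydroxylase of HIF-1 alpha under normal oxygen, had 63.7 and 66.3 CPM in the Ctrl libraries and 64.8 and 61.3 CPM in PRMT3-KD libraries. These values overlap, and the 95% interval of the log2 fold change, -0.25 to 0.16 around -0.04, leaves out a change of 1.5-fold in either direction. That interval pools the spread of both groups, although the PRMT3-KD libraries differed far more than the Ctrl libraries, so it may be too narrow. EGLN2 (PHD1, ENSG00000269858, chr19:41304901-41314339) had 66.1 and 67.2 CPM in the Ctrl libraries and 89.6 and 71.1 CPM in PRMT3-KD libraries. Both PRMT3-KD values were the higher, library 2 only slightly, and the log2 fold change was 0.27 (95% interval -0.08 to 0.62, adjusted p = 0.215, edgeR). The exons of EGLN2 are shared with the readthrough gene RAB4B-EGLN2, so its count is uncertain to that extent.

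EGLN3 (PHD3, ENSG00000129521, chr14:34393433-34931980), the hydroxylase that hypoxia induces most strongly in many cells, was the member with the fewest CPM. It had 27.1 and 26.6 CPM in the Ctrl libraries and 23.3 and 26.0 CPM in PRMT3-KD libraries. The PRMT3-KD values were lower by little, and the log2 fold change was -0.12 (95% interval -0.39 to 0.15, adjusted p = 0.437, edgeR). This interval also leaves out 1.5-fold, but it too pools the spread of both groups and may be too narrow. The log2 ratio of EGLN3 to EGLN1 was -1.23 and -1.32 in Ctrl and -1.48 and -1.24 in PRMT3-KD libraries, with overlapping groups (exact permutation p = 0.667). The hydroxylases that HIF induces were measured at 0.97 (EGLN1) and 0.92 (EGLN3) of their Ctrl level. In the same libraries HIF1A mRNA was at 0.33 of its own. HIF protein was not measured in these libraries, and the oxygen level of the cultures is not given in the sources used here. A link between these values and HIF activity was not tested. The annotation holds the pseudogenes EGLN1P1 and EGLN3P1, and exons of EGLN1 overlap those of ENSG00000287856 on the same strand.

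VHL (ENSG00000134086, chr3:10183462-10195351), the substrate receptor of the ligase that marks hydroxylated alpha subunits, had 69.6 and 70.2 CPM in the Ctrl libraries and 80.9 and 111 CPM in PRMT3-KD libraries. Both PRMT3-KD values were above Ctrl, but they differed by 1.37-fold from each other. The log2 fold change was 0.46 (95% interval 0.01 to 0.91), with an unadjusted p of 0.0466 and an adjusted p of 0.127 from edgeR's quasi-likelihood test, so VHL was not called. With limma-voom and group weights the adjusted p was 0.0396, but the log2 fold change of 0.45 stayed under 1.5-fold. Without PRMT3-KD library 1 the log2 fold change of VHL was 0.67, and without library 2 it was 0.21 (edgeR). The spread in these fits again came from the nearly equal Ctrl libraries alone.

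HIF1AN (ENSG00000166135, chr10:102288829-102319755) encodes FIH, which blocks the transactivation domain of the alpha subunits, and is the other member with 2 copies of CAGCTCA. It had 92.4 and 92.1 CPM in the Ctrl libraries and 51.8 and 58.2 CPM in PRMT3-KD libraries. The values of each group lay close together and far from the other group. The log2 fold change was -0.75 (SE 0.0892, 95% interval -0.98 to -0.51, adjusted p = 0.0198 by the edgeR test), a level 1.68-fold lower. Without Ctrl library 1 or 2 it was -0.74 or -0.75, with an adjusted p of 0.217 or 0.203 (edgeR). Exons of HIF1AN overlap those of NDUFB8, a complex I subunit gene on the opposite strand, which had 52.4 CPM in the Ctrl libraries and 49.7 CPM in PRMT3-KD cells (log2 fold change -0.08).

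**Figure D3:**
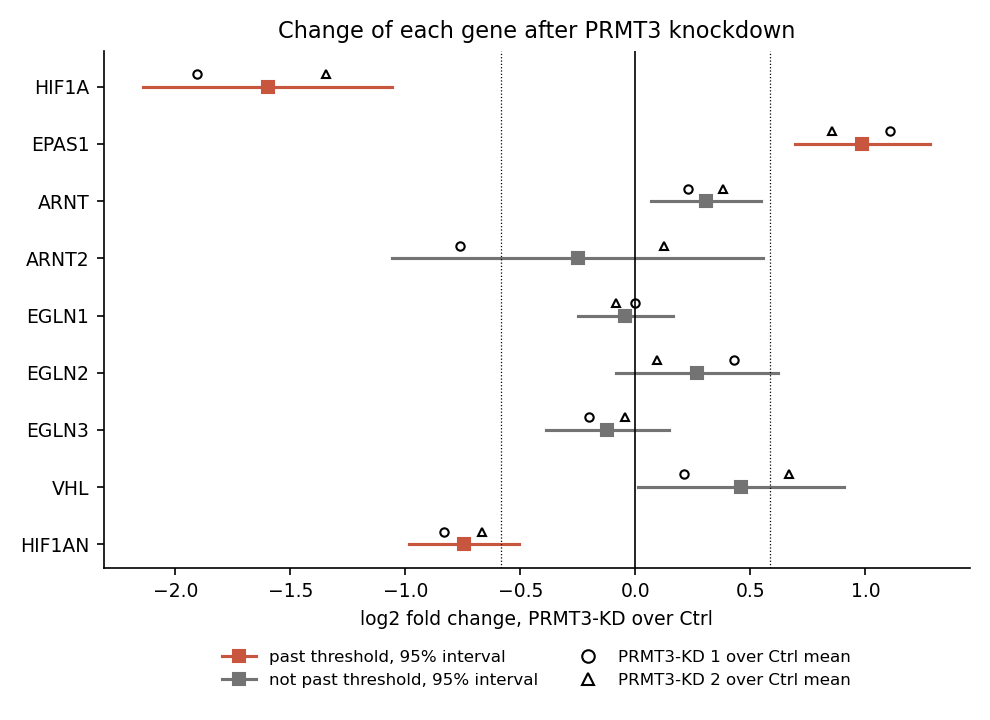
Log2 fold change of PRMT3-KD over Ctrl for each gene, with squares for the edgeR estimate, lines for its 95% interval, circles and triangles for PRMT3-KD library 1 and 2 over the Ctrl mean, and dotted lines at 1.5-fold. HIF1A (-1.60) and HIF1AN (-0.75) lie to the left and EPAS1 (0.99) to the right, all in red as called, and the circle and triangle of ARNT2 fall on opposite sides of 0.

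Levels of different genes were compared as CPM per kb of the canonical transcript of GENCODE 44, which may not be the isoform these cells use. In Ctrl cells HIF1A led with 186 ± 1.68 CPM per kb (SD, n = 2), above 98.1% of all genes with a canonical transcript. EGLN2 followed with 31.7 ± 0.383, VHL with 15.8 ± 0.105 and EGLN1 with 15 ± 0.426 CPM per kb. Levels of EPAS1 (10.1), EGLN3 (9.91), ARNT (9.49), ARNT2 (9.14) and HIF1AN (7.14 CPM per kb) were close to each other, although no 2 neighbours in this order had overlapping values. In PRMT3-KD cells HIF1A still led with 61.4 ± 16.7 CPM per kb, but EGLN2 was now at 38.3 ± 6.24. EPAS1 moved to the fourth place with 19.95 ± 2.48 CPM per kb, where its values overlapped those of VHL (21.8 ± 4.84). EGLN3 (9.11) and ARNT2 (7.67 CPM per kb) also overlapped, and HIF1AN remained the lowest with 4.26 ± 0.349 CPM per kb.

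Across the table, the median log2 fold change was lower in genes with copies of CAGCTCA, the sequence shown above for HIF1A, HIF1AN and EGLN3. It was 0.03 over the 10534 tested genes with 0 copies in the 3′ UTR, -0.10 over the 1777 genes with 1 copy and -0.15 over the 437 genes with 2 or more. Of these genes, 4.81%, 11.4% and 12.8% were called lower, and 5.47%, 3.602% and 1.83% were called higher. Genes with more copies also had longer 3′ UTRs, with medians of 1116, 2834 and 4846 bases. Within 3′ UTRs of at least 1000 bases the medians of the log2 fold change were 0.08, -0.08 and -0.14. The median lengths in this subset still rose with the copies, at 2210, 3178 and 4892 bases, so length was not matched. Over 3′ UTRs of any length, the medians had the same order in PRMT3-KD library 1 (0.03, -0.13 and -0.18) and library 2 (0.01, -0.09 and -0.12). Both were taken against the same Ctrl mean, and the sequence was known from these libraries, so the shared order is a description and no replication. The 3′ UTR of HIF1A has 1173 bases and that of HIF1AN has 11861, the longest of the 9 genes. Among the 437 genes with 2 or more copies, HIF1A had the 13th lowest log2 fold change and HIF1AN the 61st lowest. The part of these sites in the lower counts of HIF1A and HIF1AN was not tested.

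**Figure D4:**
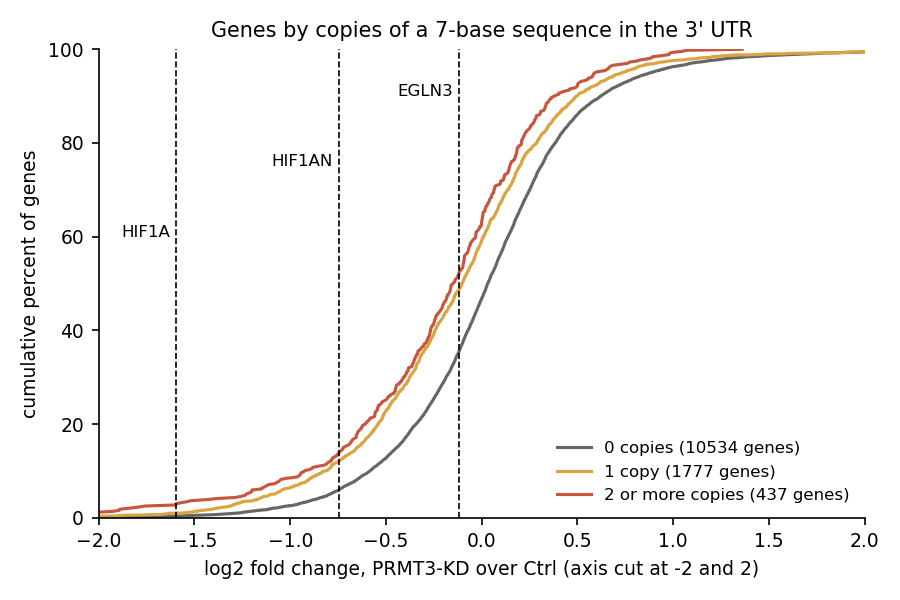
Cumulative percent of tested genes (vertical axis) up to each log2 fold change of PRMT3-KD over Ctrl (horizontal axis, cut at -2 and 2), for genes with 0, 1, or 2 or more copies of the 7-base sequence in the 3′ UTR. The curves for 1 and for 2 or more copies lie left of the curve for 0 copies, and dashed lines mark HIF1A (-1.60), HIF1AN (-0.75) and EGLN3 (-0.12).

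Genes whose values over the 4 libraries were most like those of a called member were sought among the 9458 genes whose mean reached 10 CPM, by the root mean square difference of centred log2 CPM. For HIF1A they were DPYSL2 (0.0512), PMP22 (0.0791), SLC22A23 (0.0830), SHKBP1 (0.116) and FBXL7 (0.131). For EPAS1 they were RGS4 (0.0133), ISG15 (0.0240), MMP14 (0.0326), TUSC2 (0.0347) and LRRC8A (0.0380), and for HIF1AN they were LRRC41 (0.0138), PPM1A (0.0229), NTAN1 (0.0240), OSBPL8 (0.0284) and SRSF8 (0.0296). The neighbours of HIF1A were the most distant ones, with a log2 fold change between -1.76 (PMP22) and -1.47 (SLC22A23). With 4 libraries, this likeness says little more than that the group difference and the gap between the PRMT3-KD libraries were similar.

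The partners of these genes were followed in 5 lists of 45 genes, of which 41 were tested. The calls were 2 higher and 1 lower among the 41, beside 10.9% of all genes tested, and the median log2 fold change was 0.02. Of the VHL ligase partners and the NEDD8 factors listed with them, 0 of 6 were called by edgeR, DESeq2 or limma-voom (2 at an unadjusted p under 0.05, edgeR). Among the 6 were ELOB (log2 fold change 0.16), UBE2M (0.08) and NEDD8 (-0.53, adjusted p = 0.0399 by edgeR but under 1.5-fold). Of 11 other factors that act on the alpha proteins, 0 were called by any of these tools (4 at an unadjusted p under 0.05, edgeR), and the chaperones HSP90AA1 and HSP90AB1 and the scaffold RACK1 had log2 fold changes of 0.04, -0.05 and 0.07. At an unadjusted p under 0.05 with over 1.5-fold, 5 of the 41 genes passed, beside 16.9% of all genes tested. For an unadjusted p under 0.05 alone, no share over all genes is given here, so those counts cannot be called many or few.

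Among 8 tested proteins of the bHLH-PAS family, to which the HIF subunits belong, ARNTL2 was called lower. ARNTL2, a partner of CLOCK in the circadian clock, had 84.1 ± 2.02 CPM in the Ctrl libraries and 43.8 ± 1.24 CPM after knockdown (SD, n = 2 each), and its log2 fold change was -0.94 (adjusted p = 0.0142, edgeR). Its paralogue ARNTL had a log2 fold change of 0.43 and CLOCK one of -0.34, neither called. Over the whole table edgeR called 1441 genes (10.9% of those tested) and DESeq2 1834. The 8 coactivators and CITED proteins had a median log2 fold change of 0.51, the highest of the lists. Of them, edgeR called 1 and DESeq2 called 2. The gene called by edgeR was CDK8, a Mediator kinase reported to support HIF-driven transcription, with 18.2 ± 0.580 CPM in the Ctrl libraries and 28.5 ± 2.93 CPM in PRMT3-KD cells (log2 fold change 0.64, adjusted p = 0.0336, edgeR). Scaled by library totals only, CDK8 was not called (adjusted p = 0.0603, edgeR). CITED2, which competes with HIF for p300 and CBP, had 75.7 CPM in the Ctrl libraries and 107 and 167 CPM in PRMT3-KD libraries (log2 fold change 0.85, adjusted p = 0.0682, edgeR), and was the gene that DESeq2 called in addition. The coactivators EP300 and CREBBP had log2 fold changes of 0.15 and 0.01. Of 8 genes that feed into HIF1A transcription or translation, STAT3 was called higher, with 211 ± 3.42 CPM in the Ctrl libraries and 356 ± 33.4 CPM in PRMT3-KD cells (log2 fold change 0.76, adjusted p = 0.0201, edgeR), whereas MTOR (0.02) and RHEB (0.19) were not called.

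**Figure D5:**
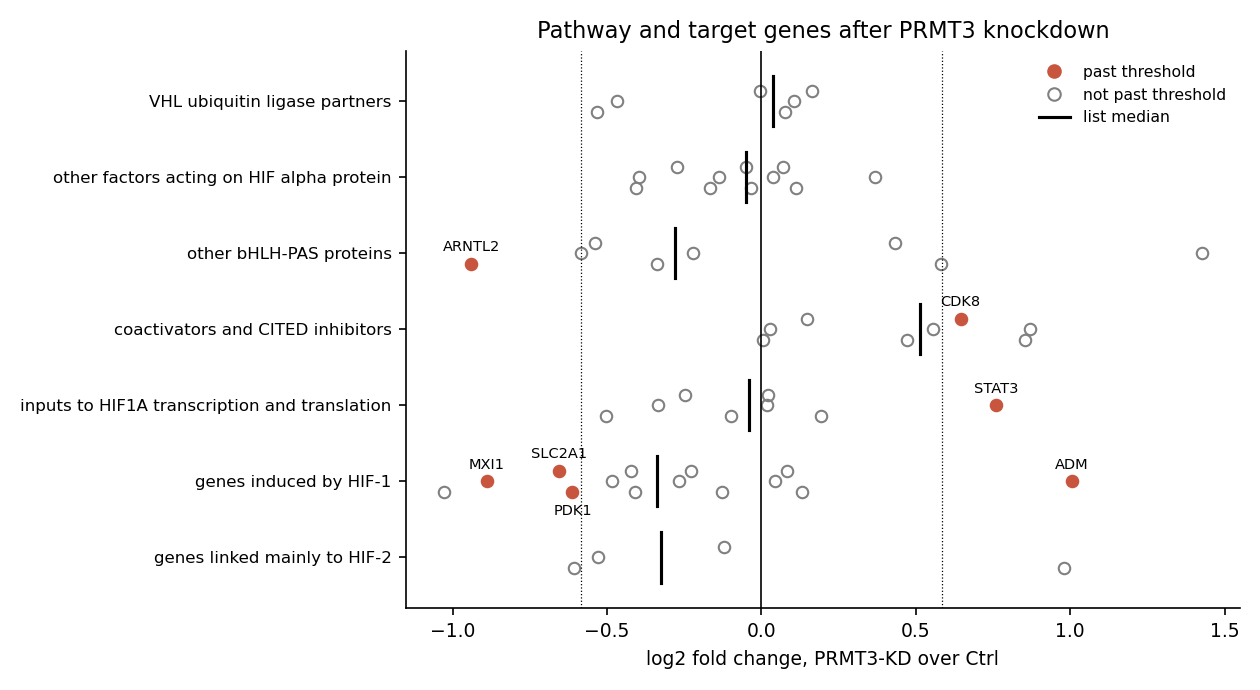
Log2 fold change of PRMT3-KD over Ctrl for each tested gene of 5 pathway lists and 2 lists of HIF-responsive genes, with filled red points for called genes (named), open points for the others, a black bar at each list's median and dotted lines at 1.5-fold. The called genes are spread over both directions, and the list of coactivators and CITED proteins has its median at 0.51.

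Genes that HIF induces were counted in the same way. Of 14 genes induced by HIF-1, SLC2A1, PDK1 and MXI1 were called lower, ADM was called higher, and 10 were not called, with a median log2 fold change of -0.34. The lower calls, 3 of 14, stand beside 5.97% of all genes tested, and the call of MXI1 was lost with limma-voom (adjusted p = 0.0602) and those of MXI1 and PDK1 with a replicate block (adjusted p = 0.0504 and 0.0523, edgeR). SLC2A1, the glucose transporter GLUT1, had 628 ± 5.52 CPM in the Ctrl libraries and 399 ± 29.0 CPM after knockdown (SD, n = 2 each), and its log2 fold change was -0.65 (adjusted p = 0.0204, edgeR). PDK1, the kinase that keeps pyruvate out of the mitochondria, had 20.8 and 20.2 CPM in the Ctrl libraries and 13.9 and 12.9 CPM in the PRMT3-KD libraries, and MXI1, an antagonist of MYC, had 8.62 and 9.23 CPM against 4.13 and 5.49 CPM. Their log2 fold changes were -0.61 and -0.89 (adjusted p = 0.0306 and 0.0482, edgeR). In each of these genes the groups did not overlap, which was also true of 67.1% of all genes tested. ADM, which encodes the vasodilator adrenomedullin, had 13.9 ± 1.403 and 27.9 ± 5.51 CPM, and its log2 fold change was 1.0 (adjusted p = 0.0337, edgeR). VEGFA (-0.13) and P4HA1 (-0.27) were not called. Of 4 tested genes linked mainly to HIF-2, 0 were called by edgeR, DESeq2 or limma-voom, beside 10.9% of all genes tested (edgeR). An unadjusted p under 0.05 was reached by 0 of them (edgeR). With so few genes, a count of 0 says little. CCND1 and TGFA had log2 fold changes of -0.53 and 0.98. For CCND1, PRMT3-KD library 1 had 491 CPM and library 2 had 238 CPM, against a Ctrl mean of 526 CPM. The TGFA value joins 81.1 CPM in PRMT3-KD library 1 with 27.9 CPM in library 2, the latter close to the Ctrl mean of 27.6 CPM.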

How the data were processed

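RNA-seq libraries of 2 Ctrl and 2 PRMT3-KD U251 cells were compared. The authors deposited unnormalized whole-number counts per gene, made with TopHat on hg19 and Cufflinks per the labels and methods; versions, annotation and strand setting are not given in the sources used here. The counts were used as deposited after 1 duplicate row was removed from 15576 entries. Low genes were removed with filterByExpr (at least 10 counts in enough libraries and 15 in total), and libraries were scaled by TMM. Groups were compared with glmQLFit and glmQLFTest of edgeR 4.0.16 (R 4.3.3), with Benjamini-Hochberg adjustment over 13172 genes. The tests were also run on simulated counts, but the outcome is not given here and so lends the p-values no weight. SE and 95% intervals come from the log2 fold change, the F statistic and its degrees of freedom. They pool the spread of both groups, although the PRMT3-KD libraries differed far more than the Ctrl libraries. Depth (24804250 to 29756313 counts per library) limits the precision of low genes. Transcript lengths and 3′ UTRs come from canonical transcripts of GENCODE 44 on GRCh37, which match 98.5% of identifiers. Alternatives were DESeq2 1.42.0, the tool of the study, other scalings, filters and fold thresholds, a replicate block, leaving out each library, and limma-voom (limma 3.58.1), added later. Named genes are the 9 members, PRMT3, and in each list the called genes and up to 3 of the highest CPM; markers, and NDUFB8, which overlaps a member, were named after their values were seen. A gene that this rule names is not reported here. Members and lists were chosen with earlier results of these data known.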

Additional observations from a re-analysis of the deposited data

How the results depend on the processing

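HIF1A, EPAS1 and HIF1AN kept their direction under every alternative run, and stayed called under DESeq2, limma-voom with group weights (chosen after seeing the data), both other scalings, both other filters and the replicate block. Over these, the log2 fold change of HIF1A lay between -1.64 and -1.59, that of EPAS1 between 0.96 and 0.99 and that of HIF1AN between -0.78 and -0.74. Leaving out each library gave -1.91 to -1.34 for HIF1A, with adjusted p from 1.0e-24 to 0.108 (edgeR), and -0.76 to 0.13 for ARNT2. The difference in the log2 ratio lay between -3.01 and -2.20 for HIF1A to EPAS1, 0.26 and 0.99 for ARNT to ARNT2, and -0.20 and 0.04 (0.039, without PRMT3-KD library 1) for EGLN3 to EGLN1. Leaving out each library gave 0 to 3066 genes called (1441 with all 4), 0 to 4 members (3 with all 4) and 0 to 6 pathway genes (3 with all 4). Pathway genes called were 2 with library totals only, where CDK8 lost its call. They were 4 with DESeq2, limma-voom or the replicate block, which added CITED2. In the whole table library totals only gave 1275 genes called, DESeq2 1834, limma-voom 1690 and the replicate block 1464. The fits without a Ctrl library gave the counts of 0, and their spread comes from the PRMT3-KD libraries alone; 3 members and 4 pathway genes then passed an unadjusted p under 0.05 with over 1.5-fold. With no fold threshold 2278 genes and 10 pathway genes were called, and at 2-fold 512 genes, 1 member and 0 pathway genes. The replicate block, with numbers that did not pair the libraries (correlation of the replicate differences 0.0222), called 1464 genes and 3 members and gave -1.62 for HIF1A. Another test, scaling or filter moved the median log2 fold change of all genes to between -0.03 and 0.01.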

Other observations

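Copies of CAGCTCA were also counted in the 3′ UTRs of the HIF-responsive and pathway genes, after their values were seen. Of 13 genes induced by HIF-1 whose 3′ UTR was read (DDIT4 was not), 3 have a copy, and these are SLC2A1, PDK1 and MXI1, the 3 genes of this list that were called lower, with 1 copy each. Over all tested genes with a 3′ UTR, 17.4% hold a copy, and of those called lower 33.7% do. The 3′ UTR of ADM, the gene called higher, has 0 copies. The relation was not complete: of the 41 pathway genes tested, RBX1, CLOCK and RPTOR have 1 copy each and none of them was called. Their log2 fold changes were -0.47, -0.34 and -0.34. CCND1, with 2 copies, was not called either (log2 fold change -0.53, mainly from PRMT3-KD library 2). ARNTL2, the 1 pathway gene called lower, has 0 copies. Since the 7 bases were known from these same libraries, these counts are a description.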
